A study of Mus musculus with 6 samples.

Results

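The Kruppel-like factors are zinc finger transcription factors, and 10 of their genes outside the erythroid factor Klf1 are described here: Klf2, Klf3, Klf4, Klf6, Klf7, Klf9, Klf10, Klf11, Klf13 and Klf16. The genes were taken by symbol from a table of 55573 genes, and all 10 passed the filter on low counts that 16493 genes passed. RNA was sequenced from 3 Abcc4-/- and 3 wild-type (WT) mouse samples, all carrying the cell type label megakaryocytes, which are marrow cells that shed platelets. Abcc4 encodes a membrane pump known to export cyclic nucleotides, and the labels give a genotype and no treatment, age or strain. How the Abcc4 allele was made, whether a sample is 1 animal or a pool, and how cells were selected beyond the CD41 in the sample titles is not stated in the labels. The comparison asks how the level of each Klf transcript differed between the genotypes, and whether factors known for rapid induction differed in another way from factors known for steady expression.

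Kruppel-like factors bind GC-rich and CACCC-type sequences through zinc fingers near the C terminus, and differ in the N-terminal part that recruits cofactors. Klf2, Klf4, Klf6 and Klf7 belong to a group that mostly activates transcription, Klf3 recruits the corepressor CtBP, and Klf9, Klf10, Klf11, Klf13 and Klf16 can recruit the corepressor Sin3. Klf2, Klf4, Klf6, Klf9, Klf10 and Klf11 are known as inducible, switched on by flow, cytokines, growth factors, TGF-beta or steroid hormones, and Klf3, Klf7, Klf13 and Klf16 are taken here as the steady ones. In blood cells Klf2 is known for keeping T cells quiescent, and Klf4 for the monocyte lineage.

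The libraries held between 67009925 and 99294493 counts in Abcc4-/- samples and between 50440239 and 55123512 in WT samples. Abcc4 itself, counted over the whole gene, averaged 61.0 ± 1.13 CPM in Abcc4-/- samples and 73.9 ± 1.96 CPM in WT samples (SD, n = 3 each), which does not check the genotype because the deleted part is not given. CPM here is a count scaled to library size with the TMM method. The 11 megakaryocyte markers examined took between 0.0192% and 0.0232% of the counts in Abcc4-/- libraries and between 0.0280% and 0.0339% in WT libraries. The 10 neutrophil markers took 3.73% to 3.94% and 2.14% to 2.76%, and the 9 monocyte and macrophage markers 1.08% to 1.22% and 1.08% to 1.25%, each in the same order of genotypes. The summed share of the neutrophil list, and that of the monocyte list, was thus above that of the megakaryocyte list in every library. In such bulk samples, fewer cells of a type and less RNA per cell cannot be told apart. B lineage markers were higher for 7 of 10 genes (0.0984% to 0.107% of counts in Abcc4-/- and 0.0503% to 0.0730% in WT), and T and NK markers for 6 of 8 (0.0152% to 0.0169% and 0.0123% to 0.0140%). Neutrophil markers were higher for 8 of 10 and lower for 1, and megakaryocyte markers were lower for 7 of 11 and higher for 1. Over all genes tested, edgeR called 8.61% higher and 8.68% lower. Mast cell and basophil markers were called in 0 of 4 (edgeR; 3 with an unadjusted p under 0.05, 1 called by DESeq2, 0 by limma-voom), with 0.169% to 0.206% of counts in Abcc4-/- and 0.196% to 0.239% in WT. Endothelial and stromal markers took at most 0.00222% in any library, with Tek and Pdgfrb lower. No marker of these lists was at 0, and the part of these cells in the Klf values was not tested.

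Of the 10 Klf genes, 7 were lower in Abcc4-/- samples and 0 were higher, with 3 not past the threshold of an adjusted p of 0.05. Over all genes tested, 8.68% were called lower, 8.61% higher and 17.3% in either direction. All 6 inducible factors were among the 7, and 1 of the 4 steady factors, Klf16. The median log2 fold change was -1.05 over the inducible factors, -0.06 over the steady factors and 0.00 over all genes tested. In 7 of the 10 genes every Abcc4-/- library lay below every WT library, a pattern seen in 18.3% of all genes tested, and 4 of the 10 were called at least 2-fold lower, against 1.77% of all genes. No p-value is given for the difference between the inducible and the steady class, since the genes were chosen with results of these data known. Without any 1 of the Abcc4-/- libraries 5 of the 10 were called lower, Klf9 and Klf10 no longer among them.

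**Figure D1:**
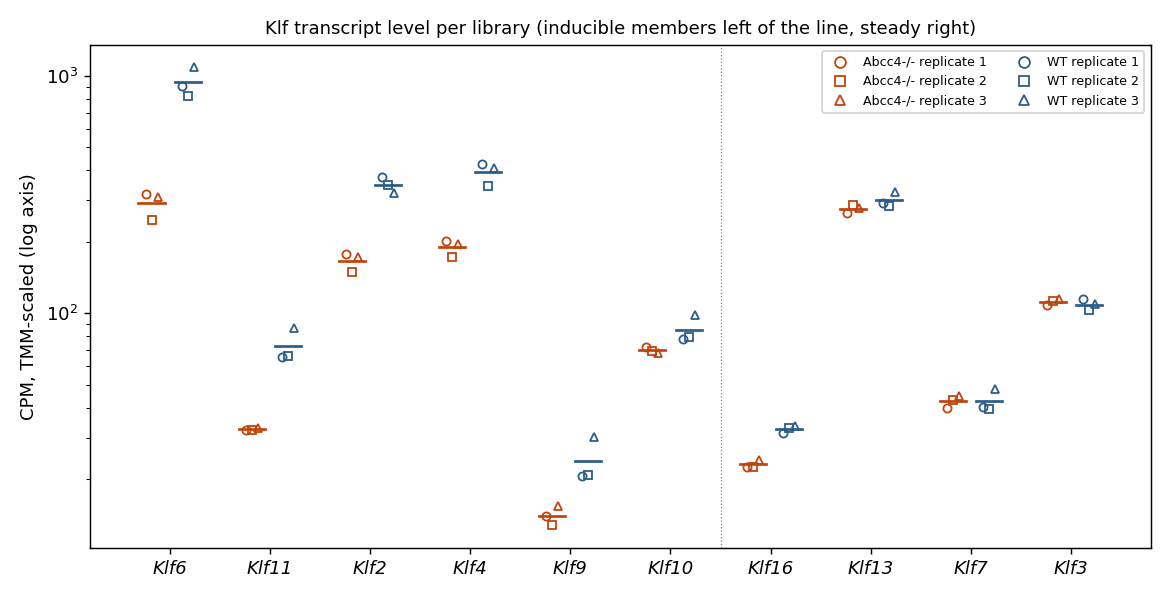
Level of each Klf transcript in each library, in CPM on a log axis, with Abcc4-/- libraries left of WT libraries for every gene; symbols mark the replicate and horizontal bars the group mean (n = 3 each). Klf6, Klf11, Klf2 and Klf4 show the widest gaps between the genotypes, and Klf13, Klf7 and Klf3 overlap on this scale.

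The genes lie on 10 different chromosomes (GRCm38 positions from GENCODE, with Ensembl gene identifiers). Klf6 (ENSMUSG00000000078.7) is at chromosome 13, 5861482 to 5870394, plus strand, and Klf11 (ENSMUSG00000020653.12) at chromosome 12, 24651274 to 24662789, plus strand. Klf2 (ENSMUSG00000055148.7) is at chromosome 8, 72319033 to 72321656, plus strand, and Klf4 (ENSMUSG00000003032.8) at chromosome 4, 55527143 to 55532466, minus strand. Klf9 (ENSMUSG00000033863.2) is at chromosome 19, 23141226 to 23168134, plus strand, and Klf10 (ENSMUSG00000037465.10) at chromosome 15, 38291463 to 38300706, minus strand. Of the steady genes, Klf16 (ENSMUSG00000035397.8) is at chromosome 10, 80567124 to 80577321, minus strand, and Klf13 (ENSMUSG00000052040.10) at chromosome 7, 63886351 to 63938915, minus strand. Klf7 (ENSMUSG00000025959.13) is at chromosome 1, 64029447 to 64122282, minus strand, and Klf3 (ENSMUSG00000029178.14) at chromosome 5, 64803388 to 64832901, plus strand. Promoter windows of 300 bases, from 250 bases before to 50 after the RefSeq start (GRCm38.p6), matched 8 of the 10 factors by symbol, all but Klf10 and Klf16. The 250 bases before the start are shown for the 4 factors that fell at least 2-fold and for Klf13, a steady factor, so that the promoters can be compared. Capitals mark matches on either strand to the short CRE core TGACG (part of the element bound by CREB), the full CRE TGACGTCA, the AP-1 site TGANTCA, the FOXO core TGTTTAC, and the MEF2, NF-kB and serum response (CArG) sites. A full CRE contains the short core, and the other motifs could overlap.
Klf6, chr13:5861239-5861488, plus strand: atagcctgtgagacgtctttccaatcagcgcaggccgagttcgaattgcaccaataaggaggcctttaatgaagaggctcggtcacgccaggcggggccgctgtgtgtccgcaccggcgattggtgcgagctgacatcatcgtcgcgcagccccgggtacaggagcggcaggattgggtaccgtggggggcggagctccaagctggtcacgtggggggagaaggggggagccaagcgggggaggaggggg
Klf11, chr12:24651121-24651370, plus strand: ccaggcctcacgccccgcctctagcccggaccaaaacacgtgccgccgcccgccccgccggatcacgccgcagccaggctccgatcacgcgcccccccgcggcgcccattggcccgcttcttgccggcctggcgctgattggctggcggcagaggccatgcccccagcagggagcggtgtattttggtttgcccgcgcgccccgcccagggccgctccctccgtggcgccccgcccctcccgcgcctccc
Klf2, chr8:72318812-72319061, plus strand: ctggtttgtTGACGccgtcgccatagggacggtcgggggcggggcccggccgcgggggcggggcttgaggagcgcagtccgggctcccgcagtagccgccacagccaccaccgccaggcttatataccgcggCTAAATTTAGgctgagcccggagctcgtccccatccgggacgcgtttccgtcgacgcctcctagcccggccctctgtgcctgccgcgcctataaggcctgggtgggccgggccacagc
Klf4, chr4:55532476-55532725, minus strand: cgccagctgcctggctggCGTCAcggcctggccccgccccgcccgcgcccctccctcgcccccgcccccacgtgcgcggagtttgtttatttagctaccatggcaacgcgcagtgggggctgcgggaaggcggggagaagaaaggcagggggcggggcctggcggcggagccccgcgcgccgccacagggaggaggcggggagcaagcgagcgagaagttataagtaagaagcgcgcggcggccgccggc
Klf13, chr7:63938916-63939165, minus strand: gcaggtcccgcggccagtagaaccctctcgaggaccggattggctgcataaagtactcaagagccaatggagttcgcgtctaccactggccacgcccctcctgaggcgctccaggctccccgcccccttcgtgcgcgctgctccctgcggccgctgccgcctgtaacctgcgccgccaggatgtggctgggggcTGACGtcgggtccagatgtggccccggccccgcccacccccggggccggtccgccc

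Positions are given relative to the start, which is 0. The Klf2 window holds a MEF2 match, CTAAATTTAG, at -118 to -109, and 0.557% of all 32851 promoter windows hold such a match. This motif was added to the search later than the others. The Klf2 window also holds the short CRE core at -241 to -237. Klf4 has this core on the opposite strand at -232 to -228, and the steady Klf13 has it at -56 to -52. Of the 8 windows, 5 hold the short core (Klf2, Klf3, Klf4, Klf9 and Klf13), against 20.8% of all windows, and 0 hold the full CRE (1.79% of all windows), the serum response core (1.63%) or the NF-kB site (8.46%). Klf9 alone of the 8 holds an AP-1 match (7.81% of all windows) and a FOXO match (3.65%). The windows of Klf6, Klf11 and Klf7 hold no match to these motifs. GC boxes (GGGCGG), a form of site that Sp and Kruppel-like factors themselves bind, occur in 7 of the 8 windows and in 35.7% of all windows, with 6 in Klf3, 4 each in Klf4 and Klf11, 3 in Klf13, 2 in Klf2 and 1 each in Klf6 and Klf7. The CACCC box occurs in 5 of the 8 and in 57.5% of all windows. The 8 windows had between 58.3% and 77.7% G and C, against a median of 52.7% over all windows. These matches are letters in a short window and say nothing of binding.

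Klf6, an activator known for induction in injury and in macrophages, had the lowest log2 fold change of the family. It had 317, 248 and 309 CPM in the Abcc4-/- libraries, against 910.0, 823 and 1084 CPM in the WT libraries. The lowest WT library was 2.59 times the highest Abcc4-/- library. Klf6 fell 3.22-fold (log2 fold change -1.69, SE 0.13, adjusted p = 2.6e-04 with edgeR's quasi-likelihood test and Benjamini-Hochberg adjustment, as throughout unless named), and 112 of the 16493 genes had a lower log2 fold change. WT replicate 3 was the highest library, and without it the log2 fold change was -1.57 (adjusted p = 3.8e-04).

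Klf2, the factor of quiescent lymphocytes and of endothelium under flow, had 178, 149 and 173 CPM in the Abcc4-/- libraries and 374, 346 and 322 CPM in the WT libraries. The groups did not overlap, and the spread within each was small beside the gap. Klf2 fell 2.08-fold (log2 fold change -1.06, SE 0.08, adjusted p = 1.3e-05). Klf4, which drives monocyte differentiation and is one of the factors used to reprogram fibroblasts, had 202, 173 and 196 CPM in the Abcc4-/- libraries and 426, 343 and 411 CPM in the WT libraries. It fell 2.06-fold (log2 fold change -1.04, SE 0.09, adjusted p = 7.5e-05). Abcc4-/- replicate 2 was the lowest library for Klf2, Klf4 and Klf6 alike. Monocyte markers stood beside this as follows: 3 of 9 were lower (Cd14, Csf1r and Adgre1) and 0 were higher. Over all genes tested, 8.68% were called lower and 8.61% higher. Cd14, a receptor for bacterial lipopolysaccharide, fell 3.76-fold (16.1 ± 1.95 CPM in Abcc4-/- and 60.2 ± 7.78 CPM in WT, adjusted p = 7.5e-05). The Csf1r call was lost without WT replicate 1 or Abcc4-/- replicate 1 or 3 (adjusted p = 0.0917 to 0.116). The Adgre1 call was lost in 9 of 16 alternative settings (0.0508 to 0.143). Among these were limma-voom and leaving out any library but WT replicate 2. The summed share of the 9 markers overlapped between the genotypes, and their part in the Klf4 result was not tested.

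Among the Sin3-binding factors, the close relatives Klf10 and Klf11, both first described as early genes of the TGF-beta response, had different fold changes, a difference that was not itself tested. Klf11 had 32.4, 32.4 and 32.8 CPM in the Abcc4-/- libraries, against 65.8, 65.9 and 86.4 CPM in the WT libraries. It fell 2.24-fold (log2 fold change -1.16, SE 0.10, adjusted p = 2.9e-04), and the Abcc4-/- libraries were nearly equal. Without WT replicate 3, the highest, its log2 fold change was -1.02 (adjusted p = 4.7e-07). Klf10 had 72.4, 69.6 and 68.4 CPM in the Abcc4-/- libraries and 77.7, 79.9 and 98.6 CPM in the WT libraries. The groups did not overlap but lay close, and the fall was 1.22-fold (log2 fold change -0.28, SE 0.08, adjusted p = 0.0461). The Klf10 call was lost without WT replicate 2 (adjusted p = 0.0517), without Abcc4-/- replicate 1, 2 or 3 (0.106, 0.129 and 0.116), on both TPM scales (0.0642 and 0.0709), and at equal depth (0.052). Without WT replicate 3 the Klf10 log2 fold change was -0.17 (adjusted p = 0.0438). The ratio of Klf10 to Klf11 in TPM, a measure per transcript length, was 3.22, 3.12 and 3.02 in the Abcc4-/- libraries and 1.65, 1.75 and 1.62 in the WT libraries. This ratio did not overlap between the genotypes.

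Klf9, a factor induced by glucocorticoids and thyroid hormone, had the lowest mean TPM of the 10 genes in both genotypes. Its level was 14.0, 12.9 and 15.4 CPM in the Abcc4-/- libraries and 20.7, 20.8 and 30.2 CPM in the WT libraries. Klf9 fell 1.70-fold (log2 fold change -0.77, SE 0.17, adjusted p = 0.0262). WT replicate 3 stood above the other WT libraries, and without it the log2 fold change was -0.56 (adjusted p = 0.00107). The call was lost without Abcc4-/- replicate 1, 2 or 3 (adjusted p = 0.0789, 0.0874 and 0.0641) and without the filter on low counts (0.0988).

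Klf16, the exception among the steady factors, had 22.6, 22.6 and 24.2 CPM in the Abcc4-/- libraries and 31.3, 32.8 and 33.7 CPM in the WT libraries. It fell 1.41-fold (log2 fold change -0.49, SE 0.06, adjusted p = 1.9e-04), with replicates close together in both groups. Its log2 fold change lay between -0.57 and -0.47 over the 16 alternatives and was called in each of them. The steady label of Klf16 comes from general knowledge, and in these libraries it changed by more than Klf10 did (log2 fold change -0.49 against -0.28, a difference that was not tested).

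The other steady factors did not pass the threshold. Klf13, which is known for its part in late T cell activation, had 265, 286 and 278 CPM in the Abcc4-/- libraries and 292, 284 and 324 CPM in the WT libraries (log2 fold change -0.12, SE 0.06, adjusted p = 0.209). The groups overlapped in CPM, as they did for Klf7 and Klf3. Without WT replicate 3 the Klf13 log2 fold change was -0.06 (adjusted p = 0.512). Klf7, a relative of Klf6, had 39.9, 43.1 and 44.9 CPM in the Abcc4-/- libraries and 40.5, 39.6 and 48.0 CPM in the WT libraries (log2 fold change -0.0022, SE 0.08, adjusted p = 0.989). The means of Klf7 were 42.6 ± 2.57 CPM in Abcc4-/- and 42.7 ± 4.62 CPM in WT (SD, n = 3 each). Klf3, the CtBP-binding repressor, had 108, 113 and 115 CPM in the Abcc4-/- libraries and 114, 103 and 109 CPM in the WT libraries (log2 fold change 0.04, SE 0.05, adjusted p = 0.664).

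The values of Klf13 and Klf3 depended on the unit. In TPM, Klf13 had 58.3, 66.3 and 65.7 in the Abcc4-/- libraries and 68.9, 69.0 and 81.6 in the WT libraries, which did not overlap, and the log2 fold change on log2(TPM + 1) was -0.20 (limma, adjusted p = 0.135). For Klf3 the TPM was 35.3, 35.3 and 36.4 in the Abcc4-/- libraries and 43.0, 36.0 and 43.1 in the WT libraries, and the log2 fold change on log2(TPM + 1) was -0.18 (limma, adjusted p = 0.147). Counts per TPM, which follow the length that RSEM assigns to the gene from its mix of transcripts, were 0.14 higher on the log2 scale for Klf3 in Abcc4-/-. Of 12582 genes with at least 1 TPM in every library, 3.97% had a larger shift in either direction. For Klf6 the shift was 0.055, and for the other 8 factors it lay between -0.025 and 0.002, with -0.002 for Klf13. On log2(TPM + 1) the median log2 fold change of all genes was itself -0.063. Which transcripts of Klf3 gave rise to its shift was not tested.

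The order of the factors by TPM also differed between the genotypes. In Abcc4-/- samples Klf2 came first (130.1 ± 12.1 TPM), followed by Klf6 (107 ± 15.5), Klf4 (93.3 ± 7.53), Klf13 (63.4 ± 4.46), Klf3 (35.7 ± 0.632), Klf10 (33.6 ± 0.090), Klf16 (12.1 ± 0.765), Klf11 (10.8 ± 0.368), Klf7 (7.97 ± 0.880) and Klf9 (4.24 ± 0.456; SD, n = 3 each). Klf6 overlapped with both of its neighbours, Klf2 and Klf4, and no other neighbours in this order overlapped. In WT samples Klf6 came first (382 ± 81.9 TPM), followed by Klf2 (286 ± 16.2), Klf4 (204 ± 25.9), Klf13 (73.2 ± 7.27), Klf10 (42.9 ± 7.22), Klf3 (40.7 ± 4.09), Klf11 (25.7 ± 5.02), Klf16 (17.9 ± 1.06), Klf7 (8.42 ± 1.38) and Klf9 (7.67 ± 2.05). Here Klf10 overlapped with Klf3 and Klf7 with Klf9, while Klf6 and Klf2 lay close without overlap (306 TPM in the lowest library for Klf6 and 304 TPM in the highest for Klf2). Klf6 stood at 0.818, 0.770 and 0.862 times the Klf2 level in the Abcc4-/- libraries and at 1.22, 1.10 and 1.71 times in the WT libraries, whereas Klf4 stood at 0.711 to 0.729 times and 0.624 to 0.802 times the Klf2 level.

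Summed over the 10 genes, Klf transcripts reached 502, 460 and 531 TPM in the Abcc4-/- libraries and 1098, 958 and 1209 TPM in the WT libraries. The inducible factors made up 77.6%, 73.6% and 76.7% of this sum in the Abcc4-/- libraries and 87.5%, 86.4% and 87.3% in the WT libraries. The steady factors summed to 112, 121 and 124 TPM in the Abcc4-/- libraries and to 137, 130.1 and 154 TPM in the WT libraries. These sums depend on the unit, since Klf3, Klf7 and Klf13 overlapped between the genotypes in CPM. On log2(TPM + 1) the median log2 fold change of all genes was itself below 0 (-0.063). Klf2, Klf4 and Klf6 alone gave between 63.2% and 68.1% of the sum in Abcc4-/- and between 79.2% and 81.4% in WT.

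**Figure D2:**
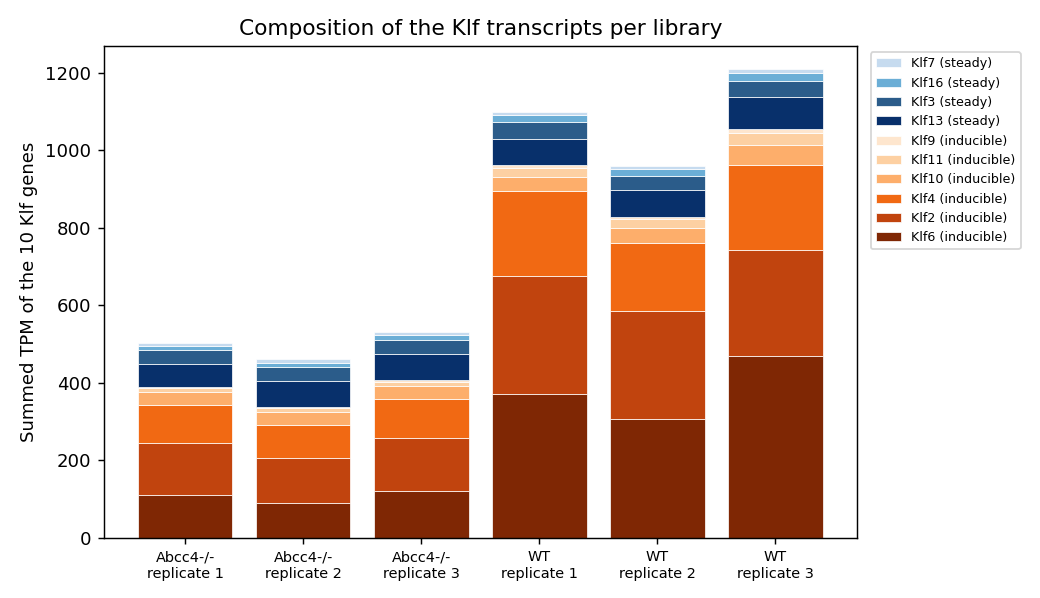
Stacked TPM of the 10 Klf genes in each library, Abcc4-/- libraries left and WT libraries right, with inducible factors in orange at the bottom and steady factors in blue at the top. The Abcc4-/- columns reach 460 to 531 TPM and the WT columns 958 to 1209 TPM, and most of the gap lies in Klf6, Klf2 and Klf4.

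The libraries of a genotype also differed among themselves. WT replicate 3 was the highest WT library for 7 of the 10 factors, Klf2, Klf3 and Klf4 being the exceptions. Abcc4-/- replicate 2, the deepest library, was the lowest of its group for 5 factors. The share of all genes with either pattern was not counted, so neither is read as a trait of the Klf genes. With all libraries thinned to the smallest total, 6 of the 10 factors were called lower, Klf10 being the one that lost its call.

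Of 8 other Klf genes, 4 passed the filter and 1 of these was called. Klf1, the erythroid factor, rose 1.54-fold (6.12 ± 0.477 CPM in Abcc4-/- and 3.96 ± 0.855 CPM in WT, adjusted p = 0.0131), and lost its call without Abcc4-/- replicate 1 (0.0639). Erythroid markers took 0.0431% to 0.0591% of the counts in Abcc4-/- and 0.0510% to 0.0554% in WT, and 3 of 8, Klf1 included, were higher. Klf5, Klf8 and Klf12 did not pass (log2 fold changes 0.07, -0.21 and -0.39, adjusted p = 0.789, 0.137 and 0.25). Klf14, Klf15 and Klf17 had at most 7 counts in any library, and Klf18 was not analysed here. None of the 4 Sp factors tested, the sister family with like zinc fingers, was called by edgeR, DESeq2 or limma-voom, and 0 had an unadjusted p under 0.05. The smallest adjusted p was that of Sp2 (57.7 CPM on average in Abcc4-/- and 61.5 CPM in WT, log2 fold change -0.09, adjusted p = 0.249). Over all genes tested 17.3% were called, and 1 of 4 Klf genes and 0 of 4 Sp factors lie near that share.

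**Figure D3:**
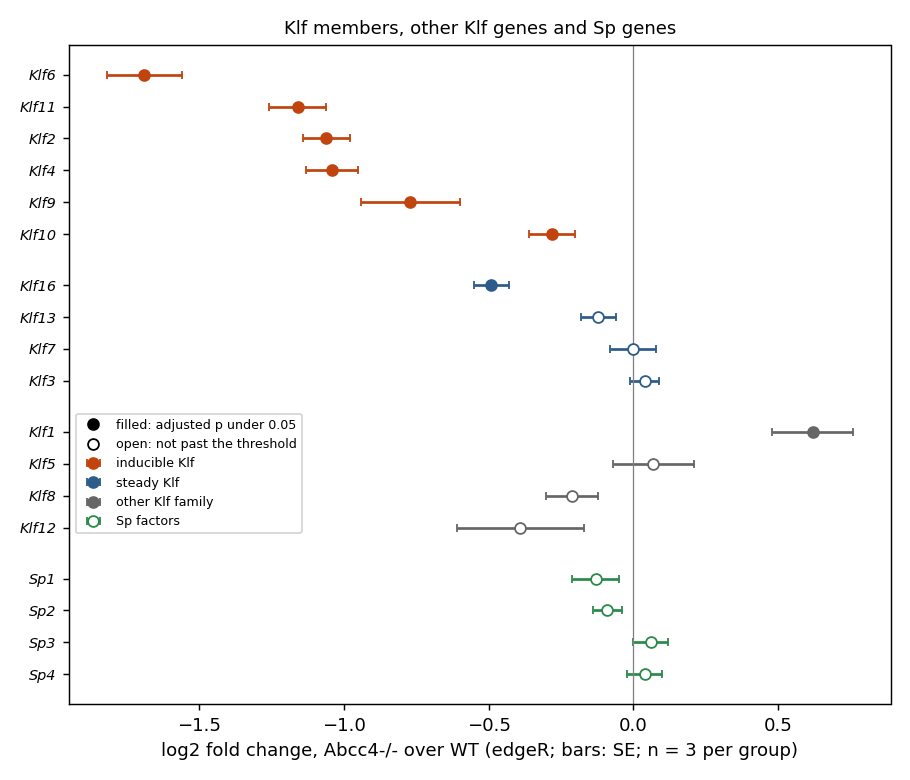
Log2 fold change of Abcc4-/- over WT with its SE for the inducible Klf genes, the steady Klf genes, the other tested Klf genes and the tested Sp genes (edgeR, n = 3 per genotype); filled points passed an adjusted p of 0.05. Values run from -1.69 for Klf6 to 0.62 for Klf1.

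Cofactors of the Klf proteins were examined next, and of 14 tested 0 were called by edgeR, 1 by DESeq2 (Hdac1) and 0 by limma-voom. Of the 14, 2 had an unadjusted p under 0.05, and the median log2 fold change was 0.02. By edgeR, 17.3% of all genes tested were called in either direction. The smallest adjusted p was that of Btrc, a ubiquitin ligase component (23.5 ± 0.998 CPM in Abcc4-/- and 20.4 ± 1.41 CPM in WT, log2 fold change 0.20, adjusted p = 0.0549). Btrc was called without WT replicate 3 and without the filter on low counts (adjusted p between 0.0234 and 0.0254). Ctbp1, the partner of Klf3, averaged 238 ± 6.47 CPM in Abcc4-/- and 232 ± 9.11 CPM in WT, and Sin3a averaged 115 ± 2.39 CPM and 117 ± 4.63 CPM in the same order (picked after their values were seen; adjusted p = 0.684 and 0.752).

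Among genes of signals known to act upstream of Klf genes, 18 were tested. Of these 6 fell and 0 rose, with a median log2 fold change of -0.07. Over all genes tested, 8.68% were called lower. Srf, the serum response factor, fell 1.23-fold (61.8 ± 0.934 CPM in Abcc4-/- and 75.8 ± 0.524 CPM in WT, adjusted p = 0.00149). Members of the MEK5, ERK5 and MEF2 route, which is known to induce Klf2 in endothelium, were among the others. Mef2a fell 1.18-fold (adjusted p = 0.0139), Mapk7, which encodes ERK5, 1.13-fold (0.0267), Map2k5, which encodes MEK5, 1.16-fold (0.0338) and Mef2c 1.15-fold (0.0357). Tgfb1, which induces Klf10 and Klf11, fell 1.14-fold (283 ± 9.19 CPM in Abcc4-/- and 321 ± 8.17 CPM in WT, adjusted p = 0.0295). The remaining MEF2 genes of the list did not pass: Mef2d had a log2 fold change of -0.15 (adjusted p = 0.135), and Mef2b, at 0.259 ± 0.0779 CPM in Abcc4-/- and 0.215 ± 0.0843 CPM in WT, one of 0.26 (adjusted p = 0.693). Map2k5, Mef2c, Mef2d and Mef2b were picked after their values were seen. Calls other than that of Srf were lost without some libraries: Mef2a without Abcc4-/- replicate 2 (adjusted p = 0.0600), Mapk7 without WT replicate 1 or 2 or Abcc4-/- replicate 1 or 3 (0.0722 to 0.111), Map2k5 without WT replicate 1 or 2 or Abcc4-/- replicate 2 or 3 (0.0681 to 0.132), Mef2c on leaving out any library other than WT replicate 1 (0.0634 to 0.153), and Tgfb1 on leaving out any other than WT replicate 3 (0.0590 to 0.107). Creb1 and the glucocorticoid receptor gene Nr3c1 did not pass (log2 fold changes 0.03 and -0.03, adjusted p = 0.770 and 0.837, picked after their values were seen).

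Genes reported as targets of Klf factors were set beside the factors, and of 10 tested 4 fell and 0 rose. Their median log2 fold change was -0.28, and the share called lower over all genes tested was 8.68%. The list mixes genes that Klf factors activate with genes they repress, so the count and the median have no single direction to be held against. Cdkn1a, the cell cycle inhibitor p21 that Klf4 and Klf6 are known to activate, fell 3.45-fold (23.4 ± 2.53 CPM in Abcc4-/- and 80.7 ± 9.53 CPM in WT, adjusted p = 3.1e-05). Smad7, an inhibitor of TGF-beta signalling that Klf10 is known to repress, fell 1.71-fold (16.6 ± 0.427 CPM and 28.4 ± 2.98 CPM in the same order, adjusted p = 5.3e-05). Thbd, the anticoagulant receptor thrombomodulin that Klf2 activates in endothelium, fell 1.69-fold (40.1 ± 1.60 CPM in Abcc4-/- and 67.5 ± 9.60 CPM in WT, adjusted p = 9.3e-04). Itgb7, an integrin subunit of homing lymphocytes, fell 1.24-fold (adjusted p = 0.00199). The lymphocyte trafficking gene S1pr1, a known target of Klf2 in T cells and picked after its values were seen, did not pass (log2 fold change -0.24, adjusted p = 0.377). T cell and NK markers, which were higher in Abcc4-/- for 6 of 8 genes, stand beside these values, and their part was not tested.

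Immediate early genes, a class that cells switch on within minutes of a stimulus, were set beside the inducible Klf factors. Of 20 tested, 19 fell and 0 rose, against 8.68% of all genes tested called lower. The median log2 fold change was -1.55, against -1.05 over the 6 inducible Klf factors. Nr4a3 was the one not called by edgeR (adjusted p = 0.15), and DESeq2 called it as well (0.0118). The difference between these lists was not tested. The antiproliferative gene Btg2 fell 2.17-fold (281 ± 21.0 CPM in Abcc4-/- and 611 ± 21.7 CPM in WT, adjusted p = 2.3e-06), and the AP-1 gene Junb 2.05-fold (457 ± 35.5 CPM and 935 ± 19.8 CPM in the same order, adjusted p = 3.2e-06). Ier2 and Nr4a2 fell by 1.12 and 2.71 on the log2 scale (adjusted p = 7.7e-07 for both). Klf2 and Klf4 thus sat near Junb, Btg2 and Ier2 in size of change, and Klf6 sat between Dusp1 (-1.60) and Jun (-1.89), which were picked after their values were seen.

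**Figure D4:**
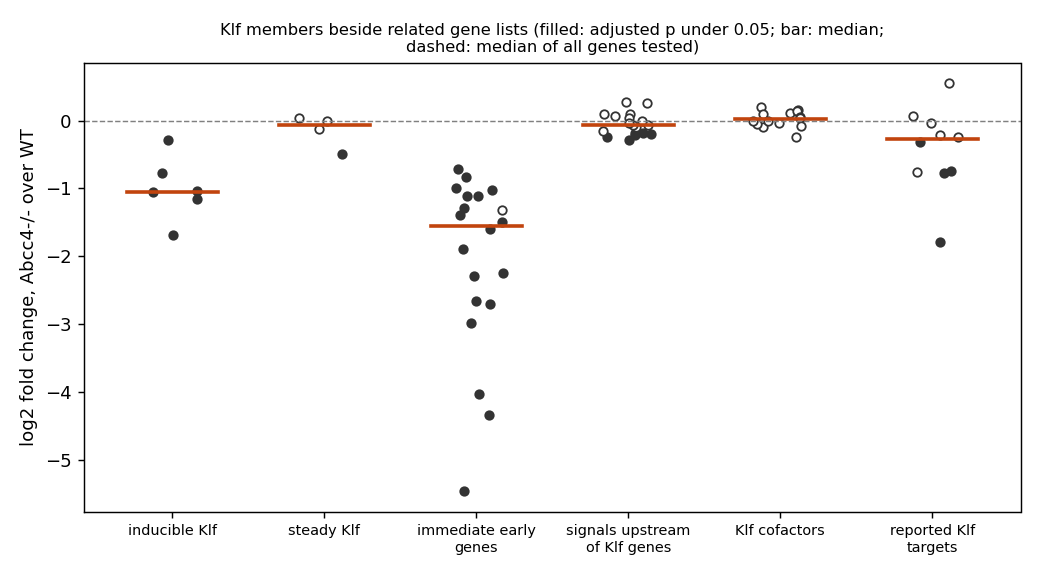
Log2 fold change of Abcc4-/- over WT for the inducible and steady Klf genes and for 4 related gene lists; each point is a gene, filled where the adjusted p is under 0.05, bars are list medians and the dashed line is the median of all genes tested. The inducible Klf genes and the immediate early genes lie below 0, and the Klf cofactors and the steady Klf genes other than Klf16 (-0.49) lie near it.

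The genes with the profile most like each inducible factor were found by the root mean square distance between centred log2 CPM over the 6 libraries, among 10774 genes. This is a description of likeness in 6 libraries, with no test. Centring was over all 6 libraries, so the distance includes the difference between the genotypes, and genes of like fold change come out near. For Klf2 they were Rhob (distance 0.041; 190.0 CPM on average in Abcc4-/- and 404 CPM in WT), Btg2 (0.068) and the histone gene Hist3h2a (0.071). For Klf4 they were Btg2 (0.079), the phosphatase gene Ptp4a1 (0.089) and the mRNA decay factor gene Zfp36 (0.094; 1025 CPM in Abcc4-/- and 2033 CPM in WT). Klf2 and Klf4 were each other's nearest factor within the family (0.107). For Klf6 they included Cdkn1a (0.064) and Ets2 (0.087; 29.3 CPM on average in Abcc4-/- and 96.7 CPM in WT), and the nearest family member, Klf11, was far off (0.295). For Klf11 they were the small Maf factor gene Mafk (0.041; 46.5 CPM in Abcc4-/- and 99.1 CPM in WT), the cochaperone gene Dnajb4 (0.047) and the cyclin gene Ccnl1 (0.059). For Klf9 they were Tent5c (0.075), Rbm15 (0.093) and Zfp503 (0.097), and for Klf10, whose change was small, Ccdc171 (0.031), Rbm4b (0.034) and Zfp655 (0.035).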

How the data were processed

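Per the labels' protocols, strand-specific mRNA libraries were sequenced as paired ends. Per the submitters' processing notes, the tools were STAR 2.7 and RSEM 1.3.1 and the build was mm10. No label names the annotation release. The authors deposited expected counts per gene, not normalized, and TPM, scaled by length within each sample. The 92 spike-in entries were at 0 counts and were left out. Gene positions are from GENCODE M21 on GRCm38, which matched 55180 of 55573 genes by versioned identifier and all 10 Klf genes.

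Expected counts were rounded and tested over 16493 genes with edgeR 4.0.16 (R 4.3.3; TMM, its default filter, quasi-likelihood test with robust estimation, Abcc4-/- over WT, Benjamini-Hochberg adjustment over all genes tested, called under 0.05). Log2 CPM used a prior count of 2. Fold changes are fitted, and SE was derived from the test statistic. On simulated counts with few changed genes, false calls took a somewhat larger share of the calls than the adjusted threshold allows. The simulation had far fewer changed genes than the 2852 called here, so its share cannot be carried over. Calls close to the threshold are the least certain. Alternatives were other normalizations, DESeq2 1.42.0, limma 3.58.1 (voom, and log2(TPM + 1) and log2(TPM + 0.1), which understate changes of low genes), other filters, equal depth, the replicate block and each library left out.

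Groups came from the labelled genotype. Since no label ties a sample to its own animal or culture, p-values reflect only how these samples vary, and that variation may be technical. The Klf genes, the lists and the inducible and steady classes were chosen with earlier results of these data known. The MEF2 motif was added to the search later than the other motifs. All 10 Klf genes are named; of each list, up to 4 called genes with the smallest adjusted p, or the gene with the smallest p where none was called; and for each inducible factor the 3 genes most like it, among those averaging 1 or more in log2 CPM, without sex-linked genes and without Gm and Rik gene models. Genes outside this rule are Abcc4, the uncalled other Klf genes, Nr4a3, Hdac1 and Crebbp, and those marked in the text as picked after their values were seen. Of the genes most like Klf6, 1 is not reported here.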

Additional observations from a re-analysis of the deposited data

How the results depend on the processing

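Klf2, Klf4, Klf6, Klf11 and Klf16 were lower and called in all 16 alternatives. Klf6 ranged from -1.83 to -1.57 on the log2 scale, Klf2 from -1.14 to -0.98, Klf4 from -1.13 to -0.98 and Klf11 from -1.23 to -1.02. The called Klf genes numbered between 5 and 7 of 10, the called inducible factors between 4 and 6, and the called steady factor was 1 in each alternative. The uncalled Klf7 changed sign from -0.0022 to 0.00092 with upper quartile scaling, 0.0018 with limma-voom, 0.0052 without a filter and 0.00093 with the replicate block, and lay between -0.054 and 0.092 with 1 library left out. The uncalled Klf3 turned from 0.040 to -0.18 on log2(TPM + 1) and -0.185 on log2(TPM + 0.1). Counts per TPM for Klf3 were 0.14 higher on the log2 scale in Abcc4-/-, and what gave rise to that was not tested.

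Over all genes, 2852 were called, 1420 higher and 1432 lower (49.8% higher), against 599 and 1512 on log2(TPM + 1) (28.4% higher) and 602 and 1552 on log2(TPM + 0.1) (27.9%). The median log2 fold change of all genes was -0.063 and -0.081 on these scales. With 1 library left out the count lay between 1760 and 2415, lowest without Abcc4-/- replicate 2 (1760) and Abcc4-/- replicate 1 (1821).

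Nothing in the labels ties samples of the same number together, and their deviations did not correlate across genes (-0.046 to -0.015). With the replicate block 3157 genes and 6 Klf genes were called, Klf10 not among them (adjusted p = 0.0636). The block added calls for the cofactors Crebbp and Hdac1 (0.0437, and between 0.041 and 0.0468 over the block and DESeq2). Low counts limit statements on Klf14, Klf15 and Klf17.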
